A study of Mus musculus with 6 samples.

Results

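The chemokines and chemokine receptors of the mouse were taken from the gene symbols alone: every listed symbol that is Ccl, Cxcl, Ccr or Cxcr followed by a number and at most 1 letter, together with Ccrl2, Ackr1 to Ackr4, Xcr1, Xcl1 and Cx3cl1. This gave 61 of the 24421 genes listed in each library, of which 39 code for ligands, 17 for signalling receptors and 5 for atypical receptors. A gene was tested where its 6 libraries averaged 1 normalized count or more, which held for 55 of the 61. The question was how this signalling system differed between cells sorted from olfactory bulbs with and without the astrocyte transcription factor Sox9.

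Chemokines are small secreted proteins that bind G protein-coupled receptors on other cells and direct their migration along a gradient. Inflammatory ligands are made on demand after interferon or NF-κB signalling, whereas homeostatic ligands are made constantly by tissue cells, and atypical receptors bind ligands without G protein signalling and so clear or retain them. In the brain the family is best known for the pair of neuronal Cx3cl1 and microglial Cx3cr1, for Cxcl12 and Cxcr4 in migration and vessel biology, and for the Ccl3, Ccl4 and Ccl2 that activated microglia release.

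All 6 mice were males labelled C57BL/6 and carried the same virus, AAV-GFAP-iCre-P2a-TurboRFP, which drives Cre and the red protein TurboRFP from the GFAP promoter, and their olfactory bulbs were dissociated with papain 4 weeks after injection. KO mice were Sox9fl/fl, so that Cre deletes Sox9, and control mice were WT (C57BL/6J in the protocol, Sox9+/+ in the study's methods), so that Cre finds no floxed allele. Each group had 3 mice with 1 library of total RNA each, made from cells sorted on TurboRFP alone, with no second marker stated. GFAP-driven expression is not strictly limited to astrocytes, and the study's notes give the sorted cells' purity as judged from marker genes in the RNA-seq itself, not by a check after sorting. Values are normalized counts, that is, reads per gene divided by 1 size factor per library. Between 18242129 and 86906527 reads lay on genes, and 1 read was worth between 0.395 and 1.58 normalized counts. Sox9 itself had 5185, 6562 and 4921 normalized counts in the 3 control libraries and 52.6, 64.3 and 57.7 in the 3 KO libraries, each in replicate order here and below (log2 fold change −6.54, SE 0.15, adjusted p = 2.5e-09 from limma), and the groups lay far apart.

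The labelled cell type, olfactory bulb astrocytes, was checked against marker genes. Of 10 astrocyte markers, 10 fell in KO, and their summed level was 453190.5–503934 normalized counts among controls and 31861–40648 among KO libraries. Of 10 microglia and macrophage markers, 10 rose, from a sum of 133678–144056 to 579561–650365. None of the markers on either list was at 0 in every library. The sort was on TurboRFP, yet microglia and macrophage markers were counted in both groups. Whether the cells they came from carried the virus was not tested. Since these are bulk samples, a larger number of cells of a type and more RNA per cell cannot be told apart, in this and every result that follows. The part of these marker shifts in the chemokine results was not tested beyond the comparison with the marker level given below.

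Across the 55 genes tested, 18 were higher and 8 lower in the KO libraries, with a fold change of at least 1.5 and an adjusted p under 0.05 (limma with Benjamini-Hochberg adjustment over all 18413 genes tested), and 29 passed neither threshold. The 18 higher genes make 32.7% of those tested, against 22.2% of all genes tested, and the 8 lower genes make 14.5%, against 28.8%. In either direction 47.3% of the tested genes passed, beside 51.0% of all genes. The median log2 fold change was 0.68, beside −0.07 over all genes tested, and it was also 0.68 with the 2 genes at 0 in every control, Ackr2 and Cxcl15, held at the bound that 3 reads over the group set. All 3 KO libraries lay above all 3 controls for 16 of the 55 (32.4% of all genes did so) and below them for 9 (34.7% of all genes), where 67.2% of all genes did one or the other. By role, 12 ligands rose and 5 fell out of 34 tested, 5 signalling receptors rose and 0 fell out of 16, and 1 atypical receptor rose and 3 fell out of 5. The 1 signalling receptor that fell at an unadjusted p of 0.05 in limma was Cxcr2, and edgeR and DESeq2 called 0 of them lower. Cxcr2 was called lower with a pseudocount of 5 (adjusted p = 0.0441 from limma), with libraries scaled to the same total without Rn45s (0.0332), with a replicate block (0.0282) and without KO replicate 3, so that the count of 0 depends on the setting.

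**Figure D1:**
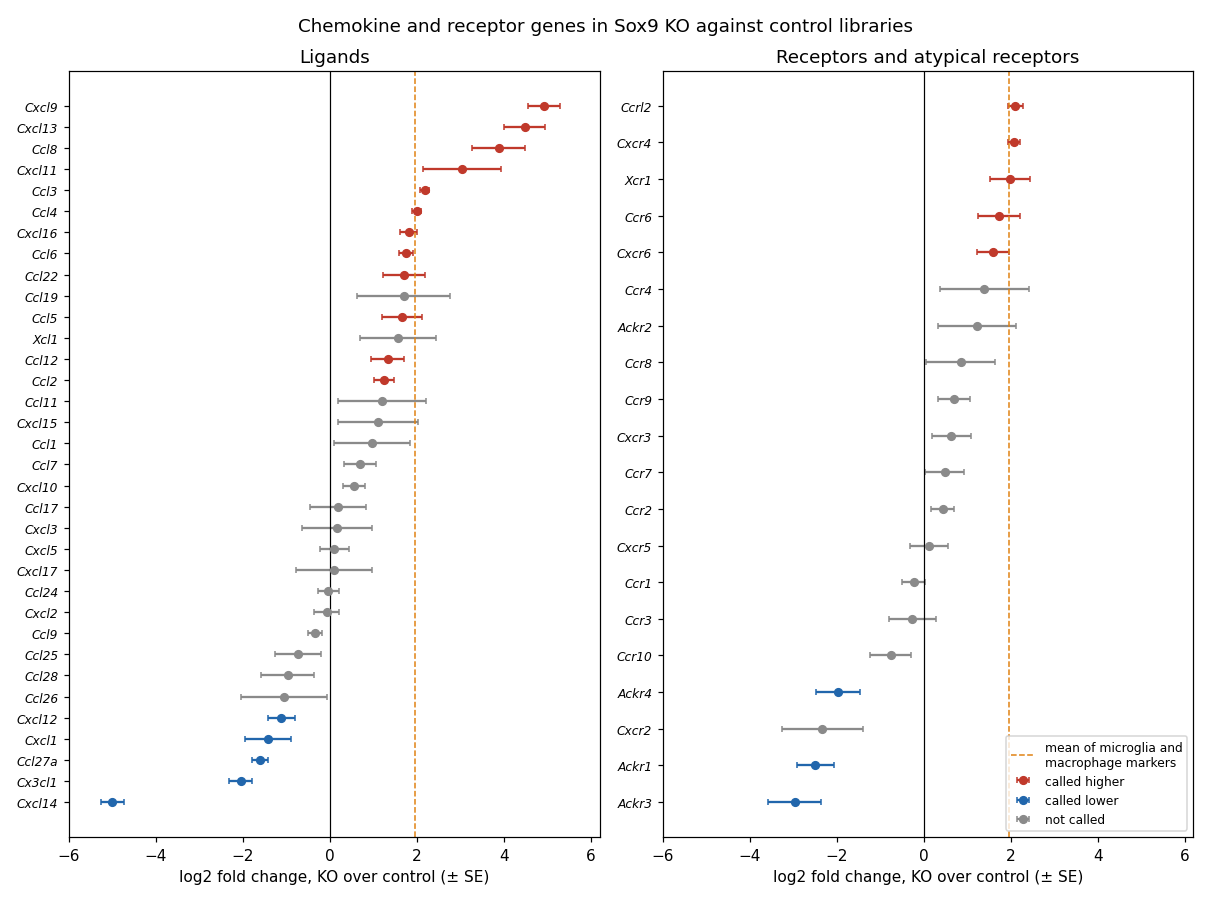
Log2 fold change of KO over control, with its standard error, for the 34 ligands and 20 of the 21 receptors tested. The dashed line is the mean change of the 10 microglia and macrophage markers, 1.97. Cxcl9 at 4.92 and Cxcl14 at −5.00 are the ends of the range.

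The interferon-induced ligands of Cxcr3, which draw activated T cells and NK cells, held the gene with the highest fold change, another that rose and, between them on the chromosome, 1 that was not called. Cxcl9 had 516, 599 and 678 normalized counts in the controls and 38301, 12650.3 and 12047 in KO. Every KO library lay far above every control, and KO replicate 1 stood well over the other KO libraries. The log2 fold change was 4.92 (SE 0.36, adjusted p = 1e-06 from limma), with a mean of 597 ± 81.0 among controls and 20999 ± 14987 among KO libraries (SD over 3 libraries). Cxcl11 had 33.6, 206 and 999 in the controls and 1962, 1472 and 1378 in KO. The KO values were close together and all higher, but the controls spread widely and replicate 3 came near the KO level. Its log2 fold change of 3.04 (SE 0.90, adjusted p = 0.013 from limma) was 1.80 without control replicate 1 and 4.23 without control replicate 3, edgeR gave 2.05, and DESeq2 gave 1.96 with an adjusted p of 0.129 (range over all alternatives 0.000545 to 0.129). Cxcl10, which had the highest level per kilobase of the 3 in the controls, had 5194, 6788 and 8997 in the controls and 15296, 8468 and 7682 in KO, with overlapping groups. It was not called at 0.55 (SE 0.26, adjusted p = 0.085 from limma), but passed without control replicate 3 (0.75, adjusted p = 0.0454) or without KO replicate 3 (0.74, adjusted p = 0.0403), within a range of adjusted p from 0.0403 to 0.773. In the controls replicate 3 was the highest for all 3 ligands, and in KO replicate 1 was.

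These 3 genes are neighbours on chromosome 5 of GRCm38 (mm10), between positions 92321347 and 92365485, a span of 44.1 kb, in the order Cxcl9, Cxcl10, Cxcl11 and all on the minus strand. Cxcl10 and Cxcl11 overlap Art3 on the opposite strand, so that reads of Art3 may be counted to them if strand was not used, and whether it was used is not known here. The 250 bases before the RefSeq start are shown for Cxcl9 and Cxcl10, since these neighbours had the most different fold changes. They are also shown for Cxcl13, with the largest rise after Cxcl9, for Cxcl14, with the largest fall, and for Ccl3 as the most abundant ligand. The windows are chr5:92328080-92328329 for Cxcl9, chr5:92348890-92349139 for Cxcl10, chr5:95956689-95956938 on the plus strand for Cxcl13, chr13:56296552-56296801 for Cxcl14 and chr11:83649379-83649628 for Ccl3, the others on the minus strand, all in the RefSeq annotation of GRCm38.p6 and printed 5′ to 3′ on the gene's strand. The Cxcl10 window falls in an intron of Art3, and the other windows overlap no gene of GENCODE vM21. Capitals mark matches to 4 short motifs on either strand: TTTCNNTTTC (the interferon-stimulated response element), TTCNNNGAA (the gamma-activated sequence), GGGANNTTCC (a form of the NF-κB site, called the NF-κB string below) and ACAANG (the SOX core).
Cxcl9: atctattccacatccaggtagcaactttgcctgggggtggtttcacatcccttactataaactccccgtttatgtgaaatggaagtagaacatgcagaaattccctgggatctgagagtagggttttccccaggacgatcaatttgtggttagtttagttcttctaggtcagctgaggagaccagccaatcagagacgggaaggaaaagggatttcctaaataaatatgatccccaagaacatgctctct
Cxcl10: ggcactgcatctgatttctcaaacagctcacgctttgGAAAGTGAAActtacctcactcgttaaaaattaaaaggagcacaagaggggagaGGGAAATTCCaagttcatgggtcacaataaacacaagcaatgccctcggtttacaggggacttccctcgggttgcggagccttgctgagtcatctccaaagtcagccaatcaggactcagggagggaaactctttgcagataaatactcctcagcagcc
Cxcl13: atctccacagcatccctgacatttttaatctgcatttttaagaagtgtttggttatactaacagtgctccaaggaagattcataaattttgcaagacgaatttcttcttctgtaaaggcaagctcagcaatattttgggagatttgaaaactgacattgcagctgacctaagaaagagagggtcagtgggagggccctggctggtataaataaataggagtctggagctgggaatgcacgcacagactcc
Cxcl14: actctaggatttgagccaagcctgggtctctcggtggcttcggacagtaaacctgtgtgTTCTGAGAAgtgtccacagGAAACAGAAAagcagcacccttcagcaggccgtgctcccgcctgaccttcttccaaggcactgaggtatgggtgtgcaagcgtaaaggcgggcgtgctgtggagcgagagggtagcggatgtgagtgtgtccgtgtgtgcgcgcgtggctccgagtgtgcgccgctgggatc
Ccl3: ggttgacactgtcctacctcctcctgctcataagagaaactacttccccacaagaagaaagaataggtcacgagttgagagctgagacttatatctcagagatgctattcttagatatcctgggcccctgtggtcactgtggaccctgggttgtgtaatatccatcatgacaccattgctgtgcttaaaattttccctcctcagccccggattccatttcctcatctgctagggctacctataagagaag

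In Cxcl10 the capitals are the interferon-stimulated response element, 213 to 204 bases before the start, and the NF-κB string, 159 to 150 bases before it. In Cxcl14 they are the gamma-activated sequence, 191 to 183 bases before the start, and the interferon-stimulated response element, 172 to 163 bases before it. The windows of Cxcl9, Cxcl13 and Ccl3 held no match to these 4 strings. Of the 27025 genes with windows of this length in the RefSeq table, 3.46% held the interferon-stimulated response element, 8.13% the gamma-activated sequence, 1.36% the NF-κB string and 39.9% the SOX core in at least 1 window, where the shares of all 32851 windows were 2.98%, 7.02%, 1.21% and 36.3%. Of the 61 genes 45 had a window. Among them 3 held the interferon-stimulated response element (Ccl19, Cxcl10 and Cxcl14), 3 the gamma-activated sequence (Ccl17, Ccr6 and Cxcl14), 6 the NF-κB string (Ccl1, Ccr3, Cxcl1, Cxcl2, Cxcl3 and Cxcl10) and 14 the SOX core. These strings can overlap each other, and a match describes only the letters. Other forms of these sites were not searched for, so the lower case letters may hold some.

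The inflammatory CC ligands that draw monocytes, macrophages and T cells included the most abundant ligands per kilobase. Of these 5 genes 4 rose and 1 was not called. Ccl3 had 22880.1, 24398 and 23374 normalized counts in the controls and 105606, 100981 and 112959.5 in KO, and Ccl4, its neighbour and near relative, had 11616, 10974 and 10354 and 48752, 39662 and 43477. Both were tightly grouped, with no overlap and a coefficient of variation of at most 10.4% in any group. Ccl3 had a log2 fold change of 2.18 (SE 0.10, adjusted p = 5e-08 from limma) and Ccl4 of 1.998 (SE 0.10, adjusted p = 9.6e-08 from limma). Under quantile normalization these were 1.46 and 1.41. Ccl6, a Ccr1 ligand found in rodents, had 365, 398 and 304 in the controls and 1077, 1039 and 1492 in KO, again with no overlap (log2 fold change 1.74, SE 0.17, adjusted p = 7.1e-06 from limma). Ccl5, which also attracts T cells, had 145, 229 and 588 in the controls and 1428, 548 and 782 in KO. Control replicate 3 lay above KO replicate 2, so the groups overlapped, at a log2 fold change of 1.65 (SE 0.47, adjusted p = 0.011 from limma). Without control replicate 2 its adjusted p was 0.0501 at 1.54, the highest over all alternatives, which began at 0.00127. Ccl9, the close paralogue of Ccl6 and its neighbour on chromosome 11, had 791, 904 and 630.5 in the controls and 510.3, 598 and 714 in KO, and was not called (−0.35, SE 0.17, adjusted p = 0.095 from limma).

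The ligands that draw monocytes through Ccr2 rose in 3 of 4 cases. Ccl2, the main monocyte attractant, had 9664, 9217 and 11459 normalized counts in the controls and 24663, 15665 and 35189.6 in KO. The groups did not overlap, though the KO libraries spread widely (log2 fold change 1.25, SE 0.24, adjusted p = 0.00098 from limma). Ccl12 had 2849.6, 5296 and 9174 in the controls and 15550.2, 8066 and 17452 in KO, with control replicate 3 above KO replicate 2. Its log2 fold change was 1.33 (SE 0.38, adjusted p = 0.012 from limma), and the call ended without KO replicate 3 (1.11, adjusted p = 0.0506) and under quantile normalization (0.88, adjusted p = 0.0789), where the alternatives ranged from 0.00325 to 0.0789. Ccl8, which in mice is also a ligand of Ccr8, had 159, 38.5 and 64.6 in the controls and 1185, 438 and 2534 in KO. It was higher in every KO library (3.88, SE 0.61, adjusted p = 0.00028 from limma), but the fold change moved between 3.27 without KO replicate 3 and 4.54 without KO replicate 2. Ccl7 had 4421, 3391 and 2974 in the controls and 5639.7, 2988 and 10939 in KO, with overlap through KO replicate 2, and was not called (0.68, SE 0.37, adjusted p = 0.13 from limma). Without KO replicate 2 it reached 1.15 with an adjusted p of 0.00424, in a range up to 0.499. In KO replicate 3 all 4 were at their highest.

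Cxcl13, the attractant that organises B cells through Cxcr5, had 142, 75.0 and 189 normalized counts in the controls and 5954, 2846 and 1347 in KO. All KO libraries lay above all controls, though the KO libraries differed widely among themselves (log2 fold change 4.48, SE 0.47, adjusted p = 1.5e-05 from limma). Cxcl16, a membrane-bound ligand of Cxcr6, had 1084, 1588 and 2033 in the controls and 6203, 4862 and 5021 in KO, without overlap (1.81, SE 0.20, adjusted p = 1.9e-05 from limma). Ccl22, a ligand of Ccr4 made by dendritic cells and macrophages, had 42.4, 103 and 151 and 483, 161 and 304. Its lowest KO library lay only just above the highest control (1.71, SE 0.48, adjusted p = 0.011 from limma). The summed level of B and plasma cell markers was also higher in KO, at 143–177 in control and 969–1422 in KO. Of these markers 2 of 6 were called higher and 4 were not called, with a median log2 fold change of 0.81. Jchain had the highest mean among them, so the sum does not describe the list as a whole. The part of these markers in the Cxcl13 result was not tested.

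Among the ligands, 5 fell. Cxcl14, a ligand made constantly by many epithelia, had 2817, 2815 and 1970.3 normalized counts in the controls and 49.6, 108 and 85.1 in KO. The groups were separated by more than an order of magnitude, with a control level 31.3 times that in KO (log2 fold change −5.00, SE 0.26, adjusted p = 1.1e-07 from limma). Cx3cl1, the membrane-tethered ligand of microglial Cx3cr1, had 975, 978 and 1045 in the controls and 175, 409 and 193 in KO. The controls had a coefficient of variation of 3.97%, and KO replicate 2 was the highest KO library and still well below them (−2.05, SE 0.27, adjusted p = 7.8e-05 from limma). Cxcl12, the ligand of Cxcr4 and Ackr3, had 367, 279 and 448 in the controls and 186, 99.5 and 240.0 in KO, and the highest KO library lay below the lowest control (−1.12, SE 0.31, adjusted p = 0.0092 from limma). Under quantile normalization the call of Cxcl12 ended (−0.62, adjusted p = 0.101, with other alternatives from 0.00115).

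Ccl27a, a skin ligand of Ccr10, was counted at 302, 289 and 288 in the controls and 101, 94.7 and 89.6 in KO, the smallest spread of any gene here in the controls (coefficient of variation 2.71%). Its log2 fold change was −1.61 (SE 0.18, adjusted p = 2.4e-05 from limma) and −0.98 under quantile normalization. It overlaps Il11ra1 and has a near-identical copy, Ccl27b, which had 0 reads in every library, so that the split of reads between them is uncertain. Cxcl1, a neutrophil attractant acting on Cxcr2, had 33.6, 55.1 and 50.4 in the controls and 6.95, 19.7 and 30.4 in KO. The groups did not overlap (−1.42, SE 0.53, adjusted p = 0.037 from limma), but the call was the least stable of the 26. It ended without control replicate 2 (adjusted p = 0.119), control replicate 3 (0.103), KO replicate 1 (0.117, at −0.86) or KO replicate 2 (0.0505), with no filter on low values (0.0514), in edgeR (0.0555) and under quantile normalization (0.328 at −0.58, the highest). The other 4 ligands of Cxcr2 passed no threshold: Cxcl2 at −0.08, Cxcl3 at 0.16, Cxcl5 at 0.10 and Cxcl15 at 1.10 on the log2 scale. Astrocyte markers moved the same way, with 10 of 10 called lower and a sum of 453190–503934 in control against 31861–40648 in KO. So did markers of neurons, with 7 of 9 called lower and a sum of 17482–23609 in control against 2578–4744 in KO. Of the neutrophil markers 6 of 7 were called lower, with 848–6381 against 278–814. Oligodendrocyte markers (6 of 6) and oligodendrocyte precursor markers (4 of 4) were called lower too. The part of any of these lists in the falls was not tested.

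**Figure D2:**
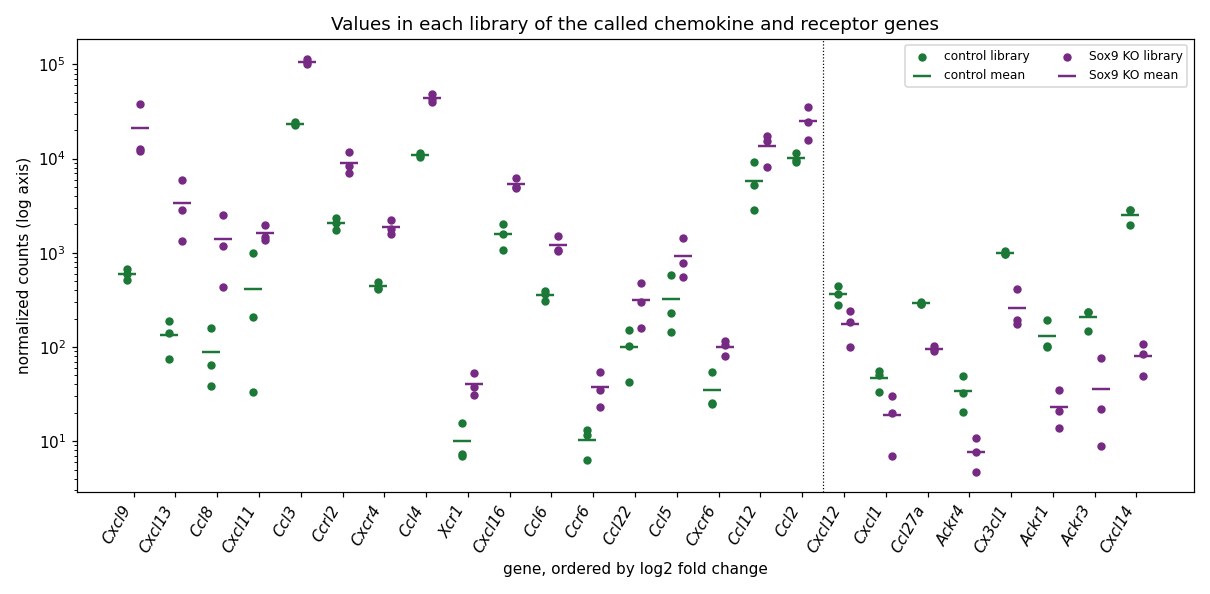
Normalized counts of 25 of the 26 called genes in each library on a log axis, with the group mean as a bar, ordered by fold change and with the higher genes left of the dotted line. Control and KO points overlap only for Ccl5 and Ccl12.

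Among the receptors that signal, 5 of 16 rose. Cxcr4, the receptor of Cxcl12, had 488, 420.5 and 409.8 normalized counts in the controls and 1572, 1798 and 2223 in KO, without overlap (log2 fold change 2.07, SE 0.14, adjusted p = 6.7e-07 from limma). Cxcr6, the receptor of Cxcl16, had 24.8, 54.4 and 25.2 and 106, 80.1 and 115 (1.59, SE 0.37, adjusted p = 0.0036 from limma), and overlaps Fyco1 on the opposite strand. Lower levels were seen for Xcr1 and Ccr6. Xcr1, the Xcl1 receptor of cross-presenting dendritic cells, had 7.31, 6.88 and 15.8 and 30.8, 37.9 and 53.2 (1.98, SE 0.46, adjusted p = 0.0039 from limma), and Ccr6, the Ccl20 receptor of B cells and T helper cells, had 13.2, 11.7 and 6.30 and 53.6, 23.3 and 34.9 (1.73, SE 0.48, adjusted p = 0.0096 from limma). Quantile normalization raised the 3 of low level, to 2.34 for Cxcr6, 2.83 for Xcr1 and 2.53 for Ccr6. Without KO replicate 1 the call of Ccr6 ended at 1.43 with an adjusted p of 0.0504, the highest over its alternatives, which began at 0.00156.

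Of the 16 signalling receptors 11 were not called. Ccr2, which marks infiltrating monocytes, had 209, 228 and 312 normalized counts in the controls and 229, 341 and 469 in KO, with overlap (0.43, SE 0.26, adjusted p = 0.17 from limma). Without KO replicate 1 it reached 0.70 with an adjusted p of 0.026 and under quantile normalization 0.89 with 0.0109, in a range up to 0.752. Ccr1, a receptor of monocytes and neutrophils, had 567, 373 and 363 and 263, 335 and 538 (−0.23, SE 0.26, adjusted p = 0.47 from limma). Cxcr2, the neutrophil receptor, had 21.9, 33.7 and 41.0 in the controls and 4.96, 0.395 and 30.4 in KO. KO replicates 1 and 2 lay well below the controls and replicate 3 lay among them, and the fold change of −2.33 (SE 0.94) missed the threshold at an adjusted p of 0.052 from limma. Without KO replicate 3 it was −3.48 with an adjusted p of 0.00247, in a range up to 0.199. Cxcr3, the receptor of Cxcl9, Cxcl10 and Cxcl11, had 83.3, 48.2 and 23.6 and 71.5, 56.1 and 91.1 (0.63, SE 0.44), and Cxcr5, the receptor of Cxcl13, had 43.8, 35.8 and 20.5 and 52.6, 26.1 and 30.4 (0.12, SE 0.43). Both pairs of groups overlapped. Ccr10 had 17.5, 11.7 and 14.2 and 8.93, 6.32 and 9.11, all KO libraries below all controls, and was not called (−0.76, SE 0.47, adjusted p = 0.19 from limma).

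All 5 atypical receptors were tested and 4 were called. Ccrl2, which holds the attractant chemerin at the surface of activated myeloid and endothelial cells, had 1767, 2048 and 2366 normalized counts in the controls and 11697, 8259 and 7056 in KO. The groups stood well apart (2.10, SE 0.17, adjusted p = 2.5e-06 from limma). Ackr3, which scavenges Cxcl12, had 237, 235 and 148 in the controls and 8.93, 21.7 and 76.0 in KO. It was lower in every KO library (−2.97, SE 0.61, adjusted p = 0.0017 from limma), with −2.28 when KO replicate 1 and −3.76 when KO replicate 3 was left out. Ackr1, the Duffy antigen of venular endothelium and erythroid cells, had 102, 101 and 194 and 20.8, 35.1 and 13.7 (−2.49, SE 0.41, adjusted p = 0.00042 from limma), and it overlaps Cadm3 on the same strand. Ackr4, which removes Ccl19, Ccl21 and Ccl25, had 32.1, 20.6 and 48.9 and 10.9, 4.74 and 7.60 (−1.98, SE 0.50, adjusted p = 0.006 from limma), overlaps Acad11 on the opposite strand, and was not called under quantile normalization (−1.16, adjusted p = 0.0682, with other alternatives from 0.00266). Under quantile normalization Ackr3 was at −2.20 and Ackr1 at −1.67. Ackr2 had no reads in the controls and 0, 2 and 4 reads in KO replicates 1, 2 and 3. Endothelial markers fell in 4 of 7 and rose in 1 of 7, with sums of 1914.5–3061 in control and 1373–1865 in KO, and their part in the Ackr1 result was not tested.

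Of 7 homeostatic and tissue CC ligands tested, Ccl22 rose, Ccl27a fell and 5 were not called. Ccl17, the sister ligand of Ccl22, had 13.2, 18.6 and 86.7 normalized counts in the controls and 30.8, 22.9 and 45.6 in KO, with control replicate 3 highest of all (0.18, SE 0.64). Ccl25 and Ccl28, ligands of gut homing, had log2 fold changes of −0.73 and −0.97 (SE 0.53 and 0.61), and Ccl19 and Ccl1 had 1.69 and 0.97 with at most 22.5 and 4.96 normalized counts in a library. Ccl19 was called by edgeR (3.67, adjusted p = 0.0436) and without KO replicate 3 (2.88, adjusted p = 0.0184), in a range up to 0.651. Of the eosinophil attractants of Ccr3, Ccl24 had 612, 319 and 326 and 451, 383 and 342 and did not differ beyond its spread (−0.04, SE 0.24), while Ccl11 (1.20) and Ccl26 (−1.06) had few reads. Receptors at low levels were Ccr3 (−0.27, SE 0.54), Ccr4 (1.39), Ccr7 (0.48), Ccr8 (0.85) and Ccr9 (0.69), all with overlapping groups. Xcl1 (1.56) and Cxcl17 (0.09) completed the tested genes. Ccl20, Ccl21a, Ccl21b, Ccl21c and Ccl27b had 0 reads in all 6 libraries. Cxcr1 had 0 reads in each control and 1 read in each KO library, and these 6 genes were not tested.

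Added up, the ligands took 65656, 69724 and 76779 normalized counts in the controls and 274125, 202081 and 255302 in KO. These sums did not overlap, with a mean of 70720.0 ± 5628 among controls and 243836 ± 37366 among KO libraries (SD over 3 libraries), a ratio of 3.45. The ligands made 0.237% of all normalized counts in control and 0.686% in KO on average, where all counts include the ribosomal RNA precursor Rn45s. Of the ligand total Ccl3 took 33.4% in control and 44.2% in KO, and Ccl4 took 15.6% and 18.2%. The share of Cxcl9 was 0.842% in control and 8.32% in KO, and in KO replicate 1 it was 14.0%. In the other direction, Cxcl10 had 9.79% and 4.26%, Ccl7 had 5.16% and 2.61%, Cxcl14 had 3.63% and 0.0350%, and Cx3cl1 had 1.42% and 0.114%. Shares of 1 total move against each other, and no test was made on them.

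**Figure D3:**
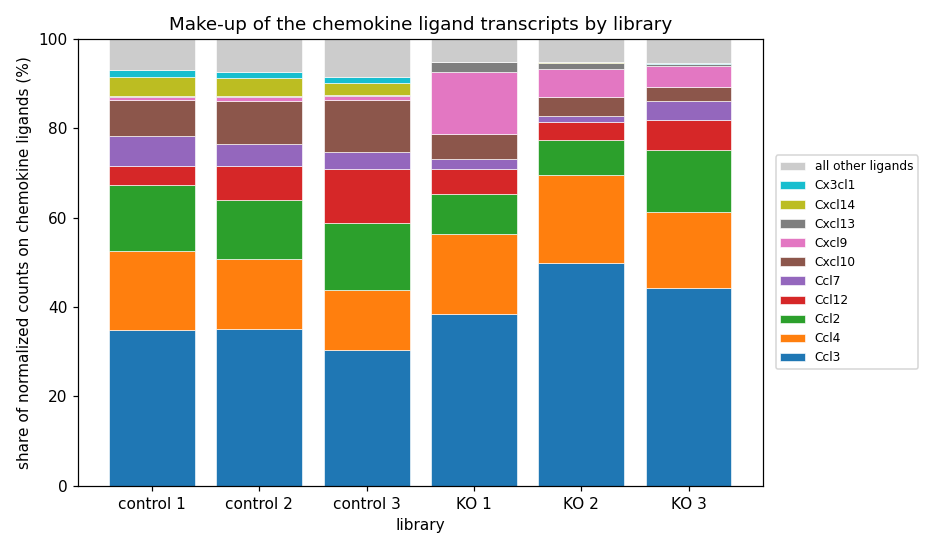
Share of each library's ligand counts, in percent, taken by the 10 ligands named in the key and by all other ligands together. Ccl3 is the largest block in all 6 libraries, Cxcl9 is wider in the 3 KO libraries and Cxcl14 in the 3 controls.

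To compare levels between genes, normalized counts were divided by the summed exon length in kilobases (GENCODE vM21). In the controls Ccl3 led with a mean of 30745 per kb, above Ccl4 with 16638, and the ranges of these 2 did not overlap. Ccl4 overlapped Ccl12 (10750.3), which overlapped Ccl2 (8887). Below them came Ccl7 (4489) and Cxcl10 (3105), which overlapped each other, and then Cxcl14 (1387) and Ccrl2 (793), each apart from its neighbours. In KO the order began in the same way with Ccl3 (139054), Ccl4 (66611), Ccl12 (25492) and Ccl2 (22120), where only Ccl12 and Ccl2 overlapped. Cxcl9 then stood at 6963 per kb, where its control level was 198, and was not separated from Ccl7 (8143) or Cxcl10 (4655). Cxcl14 was at 44.3 per kb in KO.

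Within groups the genes differed much in their spread. Over the 44 genes with a mean of at least 10 normalized counts, the median coefficient of variation was 28.6% in control and 38.2% in KO. Among the steadiest were Ccl3 (3.29% and 5.67%) and Ccl27a (2.71% and 6.12%), whereas Ccl8 varied by 72.6% and 76.7% and Cxcl11 by 125% in control and 19.5% in KO. KO replicate 3 had the highest KO value in 24 of the 44 and KO replicate 2 in 5.

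Many of these genes lie in clusters, in some of which called genes stood beside others that were not called or were called in the other direction, and no difference between neighbours was tested. On chromosome 11, from 82035571 to 82305690, 3 of 6 ligands were called higher (Ccl2, Ccl12 and Ccl8) beside Ccl7, Ccl11 and Ccl1. Further along, from 83525778 to 83664683, 4 of 5 were called higher, with Ccl9 between them at −0.35. On chromosome 8, from 94745590 to 94812036, Ccl22 rose and its neighbour Cx3cl1 fell. The Cxcr2 ligands on chromosome 5, from 90759360 to 90905938, had 1 gene lower and 4 not called. Of the receptors in a row on chromosome 9, Cxcr6 and Xcr1 rose, while Ccr1, Ccr2, Ccr3 and Ccr9 were not called.

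**Figure D4:**
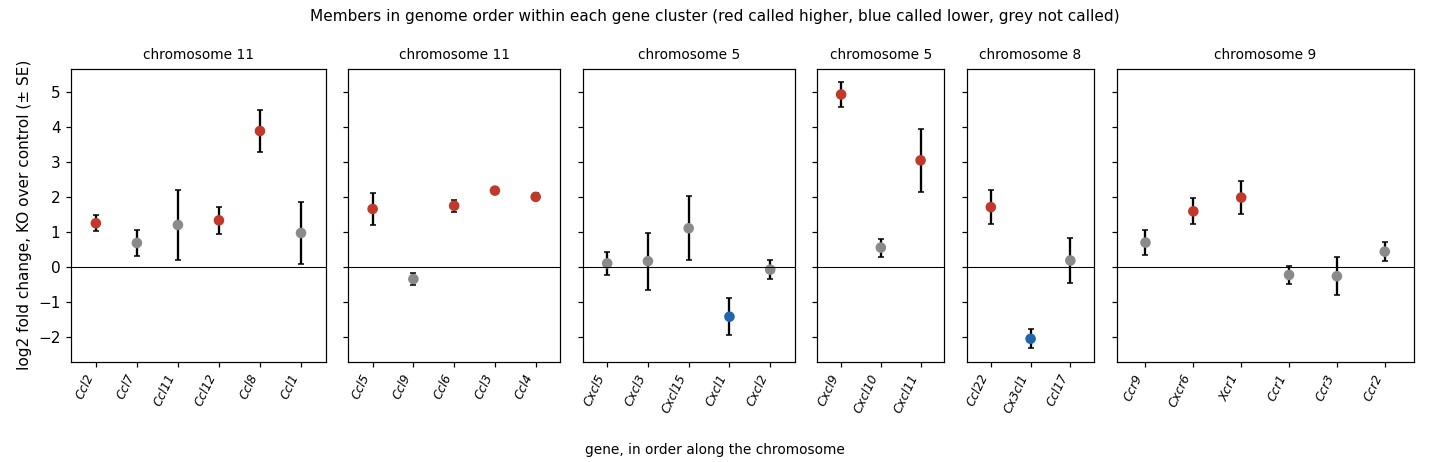
Log2 fold change with its standard error for genes of 6 clusters, in chromosome order, with called higher genes in red, called lower in blue and the others in grey. Cxcl10 at 0.55 stands between Cxcl9 at 4.92 and Cxcl11 at 3.04, and Cx3cl1 at −2.05 beside Ccl22 at 1.71.

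Ligands and their receptors did not always move together. Cxcl16 and its receptor Cxcr6 both rose. For Cxcl12 the receptor Cxcr4 rose by 2.07 on the log2 scale while the ligand fell by 1.12 and the scavenger Ackr3 fell by 2.97. Cx3cl1 fell by 2.05, and Cx3cr1, a microglial gene outside the symbol rule, rose, with 17140.0, 14792 and 15159 normalized counts among controls and 73219, 71091 and 54357 among KO libraries (log2 fold change 2.07, SE 0.13, adjusted p = 3.4e-07 from limma). Ccl2, Cxcl9 and Cxcl13 rose, while Ccr2, Cxcr3 and Cxcr5 were not called, and whether a ligand and its receptor differed in their change was not tested.

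Because microglia and macrophage markers rose in all KO libraries, each gene was also set against them, as its log2 value minus the mean log2 value of the 10 markers, which was higher by 1.97 in KO. On this scale 3 of the 18 higher genes stayed above the controls in every KO library, namely Cxcl9 by 2.95, Cxcl13 by 2.51 and Ccl3 by 0.21. For Ccl3 the margin was narrow, with the lowest KO library at 1.552 and the highest control at 1.497. In 14 of the 18 the groups overlapped, among them Ccl4 (0.03), Cxcr4 (0.11), Ccrl2 (0.14) and Xcr1 (0.01). In 1, Ccl2, all KO libraries were below all controls (−0.72). The 8 lower genes already lay below the controls in every KO library and could only move further down here. This is because the marker mean was higher in every KO library than in every control, so for them the comparison decides nothing. Of the 29 others 18 were now lower in every KO library and 11 overlapped, with Cxcl10 at −1.42 and Ccl9 at −2.31 among the lower. On this scale a gene with no change of its own also falls by 1.97. The share of all tested genes on this scale was not computed, so these counts have no background beside them. An exact permutation test of 3 against 3 libraries cannot give a two-sided p below 0.10, a value that 30 of the 55 comparisons reached (0.183 after Benjamini-Hochberg adjustment), so none passed a threshold of 0.05. Homeostatic microglia markers rose in 8 of 9 (sum 103083–126492 in control, 328890.1–385799 in KO), and border macrophage markers rose in 2 and fell in 3 of 7.

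Further genes of the pathway were taken from lists of named genes. Their counts stand beside 22.2% of all genes tested called higher and 28.8% called lower. The mean log2 value of the microglia and macrophage markers was higher by 1.97 in KO, and the part of that shift in these lists was not tested. Of 13 chemokine-related genes outside the symbol rule 8 rose and 3 fell (median log2 fold change 1.30), with Cd74, the receptor of Mif and invariant chain of MHC class II, at 5.09, Cmtm6 at 1.78 and the chemerin receptor Cmklr1 at 1.90. Of 41 genes of chemokine receptor signalling 24 rose and 1 fell (median 0.84). Of its 4 most abundant genes, the kinase Lyn (1.20) and the GTPase Cdc42 (0.78) rose, while Rac1 (0.36, under the fold threshold) and its activator Prex1 (−0.31) were not called. Of 28 genes of the signals that induce chemokines, NF-κB targets included, 23 rose (median 1.06). They included Il1b at 3.11, Il1a at 1.65 and Tnfaip3, a target of NF-κB and not an inducer, at 2.16. Immediate early and stress genes that tissue dissociation is known to induce, a list of 10 chosen after their values were seen, rose in 10 of 10, with sums of 123349–156120 in control and 404816–508374 in KO. Ccl3 and Ccl4 are also known to be induced in microglia by enzymatic dissociation, and the part of dissociation in these values was not tested.

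The other marker lists differed in direction and size, and are given beside 22.2% of all genes tested called higher and 28.8% called lower. Monocyte markers rose in 2 and fell in 1 of 6, dendritic cell markers in 2 and 1 of 6, and T and NK cell markers rose in 2 of 9, with sums of at most 78.4 normalized counts. Mural and fibroblast markers fell in 3 of 8, oligodendrocyte markers in 6 of 6, oligodendrocyte precursor markers in 4 of 4 and olfactory ensheathing cell markers in 2 of 3. Reactive astrocyte markers fell in 5 and rose in 1 of 7. No list had a marker at 0 in all 6 libraries, and the neutrophil marker Ly6g is not listed in the tables.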

How the data were processed

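RNA-seq was measured in TurboRFP-sorted olfactory bulb cells of 3 control and 3 Sox9 KO mice. According to the methods and the submitters' notes, the authors aligned reads to mm10 by STAR 2.5.0a, counted genes by GenomicAlignments and scaled the counts by DESeq2 1.20.0. Which annotation and strand setting they used is not stated in what was read here. The deposited signal values are named RPM, but in every library 100% of them were whole multiples of 1 step within 0.01 read, so they are reads divided by a size factor, called normalized counts here. Each library lists 24421 symbols, of which 27 are dates written by a spreadsheet.

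Genes with a mean of at least 1 (18413, with 6008 left out) were compared by limma 3.58.1 (R 4.3.3), applied to the log2 of the value plus 1, which understates changes of low genes, with a variance trend and two-sided p-values, and called at a Benjamini-Hochberg adjusted p of 0.05 and 1.5-fold. Recovered reads were tested with edgeR 4.0.16 and DESeq2 1.42.0 as alternatives, beside other pseudocounts, filters, scalings, a replicate block and each library left out. The design had assumed values in RPM, and its pseudocount and filter were kept as numbers. Every tested member is named, with full values for called ones, except 1 receptor that is counted but, like 1 gene of a pathway list, not reported here, and of each pathway list at most the 4 most abundant genes. Coordinates and exon lengths come from GENCODE vM21, and promoter windows from RefSeq for GRCm38.p6. The members and lists were chosen with earlier results of these data known, and the dissociation list after its values were seen. The deepest library had 86906527 reads on genes and the shallowest 18242129, which sets the smallest value that could be seen.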

Additional observations from a re-analysis of the deposited data

How the results depend on the processing

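Of the counts of called genes, those of higher members stayed between 17 and 22 over all alternatives (18 as reported). Those of lower members stayed between 7 and 10 (8 as reported), except for 5 under quantile normalization. The median log2 fold change of the members, 0.68, was 0.36 with libraries scaled to the same total without Rn45s and 0.99 under quantile normalization, settings that moved the median of all tested genes by −0.31 and 0.26, against which single genes have to be read. Rn45s took 22.4%, 21.9% and 18.3% of the reads on genes in the controls and 19.2%, 14.9% and 14.2% in KO. All genes called higher in KO numbered 2630 with the total without Rn45s (4090 as reported). The share of all calls that were lower was 56.4% as reported, 71.5% with that total and 43.5% after quantile normalization, and among members it was 30.8%, 35.7% and 18.5%. The causes were not tested. Sign changes occurred only in genes that had not been called. With the total without Rn45s these were Ccl17 (−0.13), Cxcl17 (−0.12), Cxcl5 (−0.23) and Cxcr5 (−0.20), in edgeR Ccl17 (−0.18) and Cxcl17 (−0.39), in DESeq2 Ccl17 (−0.25) and Cxcl17 (−0.50), and with a pseudocount of 5 Cxcl17 (−0.11). After quantile normalization they were Ccl24 (0.30), Ccl25 (0.059), Ccr1 (0.12), Ccr10 (0.046), Ccr3 (0.59) and Cxcl2 (0.23). With each library left out in turn, Ccl17 ranged from −0.34 to 0.98, Ccl24 from −0.20 to 0.27, Ccr3 from −0.65 to 0.24, Cxcl17 from −0.87 to 0.82, Cxcl2 from −0.41 to 0.12, Cxcl3 from −0.28 to 0.69, Cxcl5 from −0.23 to 0.34 and Cxcr5 from −0.19 to 0.34. Quantile normalization also brought Ccr7, Ccr9, Cxcr3 and Cxcl5 past the thresholds, and the total without Rn45s Ccl9 and Cxcr2. With a replicate block, 18 members were higher and 9 lower. The replicate numbers share only a number: the deviations of same-numbered libraries correlated at −0.051, −0.013 and −0.013. At the depth of these libraries, genes with a few reads, such as Cxcr1, Ackr2 and Cxcl15, cannot show a difference.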
